A study of Homo sapiens with 6 samples.

Results

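The proteasome genes were taken as the rows of the deposited gene table whose symbol is PSM followed by a letter from A to G and a number. PSMB8, PSMB9, 4 antisense symbols and 2 pseudogenes were left out, which gave 45 of the 18539 genes listed. They comprise 15 genes of the core particle (PSMA and PSMB), 20 of the regulatory particle (PSMC and PSMD), 4 activators (PSME), 1 inhibitor (PSMF1), 4 core assembly chaperones (PSMG) and PSMC3IP, which shares the symbol pattern but encodes a recombination factor. All 45 passed the filter on low values, with at least 347 estimated reads in every library.

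The proteasome degrades proteins that carry ubiquitin chains. Its core particle is a barrel of alpha and beta rings, with the proteolytic sites on PSMB5, PSMB6 and PSMB7 inside the barrel. The regulatory particle caps the barrel: its base holds the PSMC ring of ATPases that unfold the substrate, and its lid holds PSMD14, which removes the ubiquitin. In interferon-treated and immune cells PSMB8, PSMB9 and PSMB10 take the place of the constitutive catalytic subunits, and tumour cells depend on the proteasome to clear misfolded proteins.

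The libraries were made from A375, a human malignant melanoma cell line. One set of cells carried a lentiviral short hairpin RNA against the coding region of MMP9, a secreted gelatinase (shMMP9, 3 libraries), and the other set carried a control hairpin (shControl, 3 libraries). Both were grown in medium with 10% serum, infected with polybrene at 8 µg/ml and selected for 2 weeks with puromycin at 2 µg/ml. A single hairpin sequence against MMP9 is given, so an effect of the hairpin itself and of lower MMP9 cannot be told apart. The labels do not state whether the replicates are separate cultures, and the p-values therefore reflect a spread among libraries that may be technical. They also do not state whether the cells are a pool or a clone. Levels are counts scaled by the authors to a common upper quartile, and a log2 change is the mean of log2(scaled count + 1) in shMMP9 less that in shControl.

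The listed genes held 21854123 to 25895698 estimated reads in shMMP9 libraries and 24319969 to 28005552 in shControl libraries. MMP9 had 16.2, 14.6 and 17.1 scaled counts in shMMP9 libraries, against 26.1, 24.3 and 28.7 in shControl libraries (log2 change -0.69, SE 0.0847, adjusted p = 1.25e-05), so the targeted transcript was lower but not lost. Of 12 melanocyte lineage markers 10 were listed, with SOX10 and CSPG4 well expressed, PMEL, TYRP1 and MLANA at a mean of 1.73 or less, and TYR and DCT not listed. The 10 listed summed to 2080.3 to 2202 scaled counts in shMMP9 libraries and 1224 to 1349.8 in shControl libraries. Summed marker levels of other cell types also differed, at 127 to 136 in shMMP9 and 70.0 to 81.6 in shControl libraries for 3 listed of 6 keratinocyte markers, and at 11.9 to 13.1 in shMMP9 and 27.3 to 28.9 in shControl libraries for 6 of 6 fibroblast markers. Leukocyte markers, of which 3 of 6 were listed, summed to 98.0 to 101 in shMMP9 and 114 to 135 in shControl libraries, and 6 of 6 endothelial markers to 22.1 to 25.7 in shMMP9 and 55.9 to 64.8 in shControl libraries. Levels within these lists were uneven. KRT5 averaged 0.203, and PTPRC and CD3E were not listed. In contrast, KRT10 averaged 91.6, KRT14 11.9, CD68 107, TIE1 27.2, KDR 11.2 and COL1A1 10.8. Mitochondrially encoded genes held 0.62 to 0.71% of reads in shMMP9 and 1.64 to 1.79% in shControl. The part of these differences in the proteasome values was not tested. In bulk RNA fewer cells of a type and less RNA per cell cannot be told apart.

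Transcripts of most core and regulatory subunits were modestly higher in shMMP9 cells, whereas the inhibitor PSMF1, the immunoproteasome subunit PSMB10 and the chaperone PSMG2 were lower. The log2 change of PSMG2, -0.42, equalled the median of tested genes on its chromosome, 18. Of the 45 genes 26 rose (57.8%), 7 fell (15.6%) and 12 did not pass at an adjusted p under 0.05 in limma. Among all 17194 genes tested, 57.5% passed, 25.0% having risen and 32.5% fallen. Rescaling by median of ratios or by total reads left 4 of the 45 called lower and 30 called higher. The median log2 change of the 45 was 0.16, against -0.05 for all genes tested. Among the 8678 tested genes at or above the lowest mean level of a proteasome gene, 30.8% rose and 34.8% fell, with a median of -0.02. The changes were small: the ratio of mean scaled counts, shMMP9 over shControl, lay between 0.726 for PSMF1 and 1.65 for PSMA1, and only PSMA1 and PSMC2 exceeded 1.5. All 3 shMMP9 libraries lay above all 3 shControl libraries for 29 of the 45 genes (27.6% of all genes tested) and below them for 8 (35.1% of all genes tested).

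**Figure D1:**
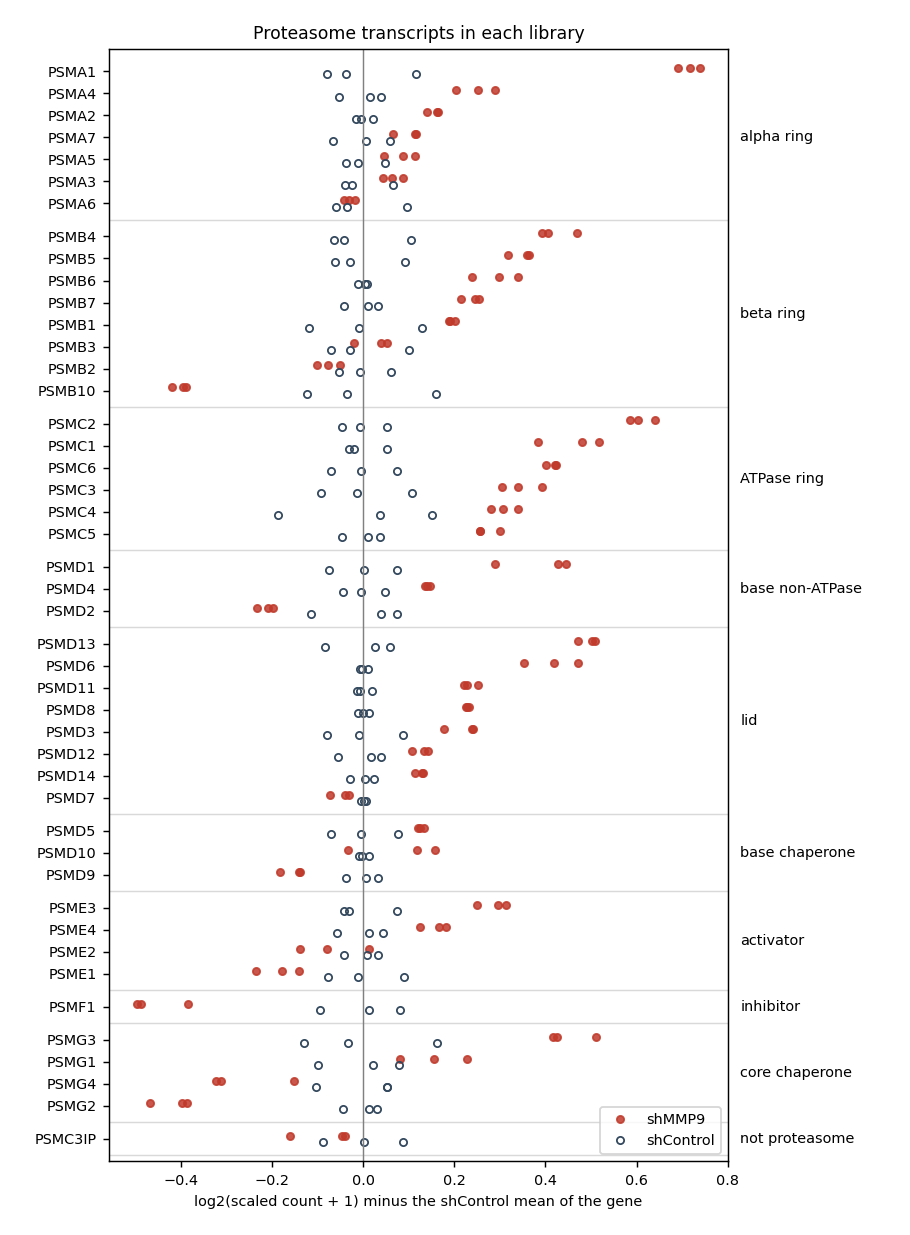
Each point is 1 library of shMMP9 (filled, red) or shControl (open), placed at log2(scaled count + 1) minus the gene's shControl mean, with the 45 genes in rows by role. The shMMP9 points lie right of the shControl points for all 6 ATPase ring genes, and left of them for PSMF1, PSMB10, PSMG2 and PSMD2.

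Promoters of the proteasome genes were searched for letters known from proteasome gene control. NFE2L1, a transcription factor that raises proteasome gene expression when proteasomes are inhibited, binds with small MAF proteins to sites with the core TGACNNNGC, and the factor NF-Y binds CCAAT. Windows from 250 bases before to 50 after the start were available from RefSeq (GRCh38.p14) for 38 of the 44 proteasome genes without PSMC3IP, 46 windows in all, and both strands were read. TGACNNNGC stood in 14 of the 46 windows (30.4%), against 14.4% of 16861 windows of tested genes and 13.3% of all 35116 windows. Of the 14 genes with it 7 rose and 3 fell, and of the 24 without it 14 rose and 4 fell (median log2 changes 0.14 and 0.20). CCAAT stood in 18 windows (39.1%), against 34.7% for tested genes and 34.6% for all. Of the 18 genes with CCAAT 11 rose and none fell, and of the 20 without it 10 rose and 7 fell. The median log2 changes of these groups were close, at 0.19 with CCAAT and 0.13 without. Of the genes that fell, PSMD9, PSME1 and PSMG4 lost the call when libraries were rescaled by median of ratios or total reads. Calls of all tested genes were not split by motif, so no background share stands beside the counts by motif. A further motif, GAAA followed after any 2 bases by GAAA again, known from sites of interferon regulatory factors, was added after the PSMB10 window had been read. It stood in 6 windows (13%), against 2.94% for tested genes and 3.57% for all. The 6 genes were PSMB10, PSME1 and PSMG4, which fell, PSMB4 and PSMA4, which rose, and PSME2, which did not pass. These counts describe letters in a window and were given no test.

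The 250 bases before the start are shown for 5 genes, written 5′ to 3′ on the strand of the gene, with matches to any of the 3 motifs on either strand in capitals. They are PSMA1 and PSMC2, with the largest rises, PSMD3, which rose and holds both CCAAT and TGACNNNGC, PSMD9, which fell and holds TGACNNNGC at 2 places, and PSMB10, which fell and holds the GAAA repeat. They lie at chr11:14520387-14520636 on the minus strand for PSMA1, chr7:103347393-103347642 on the plus strand for PSMC2, chr17:39980557-39980806 on the plus strand for PSMD3, chr12:121888540-121888789 on the plus strand for PSMD9 and chr16:67936851-67937100 on the minus strand for PSMB10. No matches overlapped.
PSMA1: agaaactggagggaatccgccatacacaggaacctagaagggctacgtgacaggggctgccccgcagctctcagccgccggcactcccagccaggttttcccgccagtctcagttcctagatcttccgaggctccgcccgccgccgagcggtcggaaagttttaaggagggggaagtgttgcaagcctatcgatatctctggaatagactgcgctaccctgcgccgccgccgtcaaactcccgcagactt
PSMC2: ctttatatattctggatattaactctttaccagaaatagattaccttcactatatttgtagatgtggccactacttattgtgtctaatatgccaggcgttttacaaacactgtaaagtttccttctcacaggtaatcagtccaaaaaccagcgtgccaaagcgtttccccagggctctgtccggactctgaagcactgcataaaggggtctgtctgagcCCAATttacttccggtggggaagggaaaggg
PSMD3: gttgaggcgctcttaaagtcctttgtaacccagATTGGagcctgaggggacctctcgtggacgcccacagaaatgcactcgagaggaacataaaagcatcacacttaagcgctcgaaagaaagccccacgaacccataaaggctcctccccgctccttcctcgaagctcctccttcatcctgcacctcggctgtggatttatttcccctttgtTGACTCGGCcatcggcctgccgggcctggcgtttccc
PSMD9: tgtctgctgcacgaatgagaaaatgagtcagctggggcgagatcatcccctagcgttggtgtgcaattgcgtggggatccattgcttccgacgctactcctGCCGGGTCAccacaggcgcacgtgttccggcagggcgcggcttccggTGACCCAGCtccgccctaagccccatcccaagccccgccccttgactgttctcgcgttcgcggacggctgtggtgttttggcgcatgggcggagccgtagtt
PSMB10: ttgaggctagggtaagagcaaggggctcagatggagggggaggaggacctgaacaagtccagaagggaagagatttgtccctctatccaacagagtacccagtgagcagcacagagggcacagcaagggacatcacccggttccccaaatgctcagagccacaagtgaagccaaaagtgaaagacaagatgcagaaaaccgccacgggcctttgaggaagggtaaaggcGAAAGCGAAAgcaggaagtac
The 250 bases shown for PSMA1 hold none of the 3 motifs. The capitals in PSMC2 are CCAAT, those in PSMD3 are CCAAT read on the other strand and TGACNNNGC, those in PSMD9 are TGACNNNGC in both orientations, and those in PSMB10 are the GAAA repeat.

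In the alpha ring, which forms the outer gate of the core, 3 of 7 genes rose, none fell, and the median log2 change was 0.10. Counts for this and the following roles stand against 25.0% risen and 32.5% fallen among all genes tested. PSMA1 had 135, 139.7 and 138 scaled counts in shMMP9 libraries, against 90.4, 81.1 and 78.8 in shControl libraries. The groups were far apart, and its log2 change of 0.72 (SE 0.0559, adjusted p = 1.60e-07) was the largest of the 45 genes. PSMA4 had 198, 204 and 192 scaled counts in shMMP9 libraries and 171, 168 and 160.4 in shControl libraries, a log2 change of 0.25 (adjusted p = 0.000577). PSMA2 rose by 0.16. The other 4 alpha genes lay between -0.03 (PSMA6) and 0.10 (PSMA7) and did not pass. PSMA7 and PSMA5 passed when libraries were rescaled by median of ratios (adjusted p = 0.0184 and 0.0268) or by total reads (adjusted p = 0.0102 and 0.019). Genes of the same ring thus ranged from -0.03 to 0.72.

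In the beta ring 5 of 8 genes rose and 1 fell, with a median of 0.22. All 3 constitutive catalytic genes rose. PSMB5, the chymotrypsin-like subunit and the main target of proteasome inhibitor drugs, had 157, 156 and 152 scaled counts in shMMP9 libraries, against 129, 119 and 116 in shControl libraries (log2 change 0.35, SE 0.0512, adjusted p = 6.81e-05). PSMB6, the caspase-like subunit, had 144, 138 and 148 in shMMP9 libraries and 116, 118 and 117 in shControl libraries (log2 change 0.29, adjusted p = 0.000131). PSMB7, the trypsin-like subunit, had 267, 266 and 260.1 in shMMP9 libraries and 218, 226 and 229 in shControl libraries (log2 change 0.24, adjusted p = 0.000523). For each of the 3 the groups did not overlap. The non-catalytic PSMB4 showed the largest rise of the ring, with 529.7, 535 and 559 scaled counts in shMMP9 libraries, against 392, 434 and 386 in shControl libraries (log2 change 0.42, adjusted p = 2.19e-05). PSMB1 rose by 0.19 (adjusted p = 0.0123), a call that ended without shControl replicate 3 (adjusted p = 0.074). PSMB2 stood at -0.08 and PSMB3 at 0.02, and neither passed, although PSMB2 passed as lower without shControl replicate 1 (adjusted p = 0.0412).

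PSMB10, which replaces PSMB7 in immunoproteasomes, moved the other way. It had 18.1, 17.96 and 17.7 scaled counts in shMMP9 libraries, against 21.9, 23.4 and 26.9 in shControl libraries. The 3 shMMP9 libraries were nearly equal and all below the shControl libraries, with a log2 change of -0.40 (SE 0.0817, adjusted p = 0.0009). Per kilobase of transcript, PSMB10 stood at 5.43, 5.43 and 5.46% of PSMB7 in shMMP9 libraries and at 8.10, 8.33 and 9.44% in shControl libraries. The log2 ratio of PSMB10 to PSMB7 differed by -0.64 between the groups, with an exact two-sided permutation p = 0.1, the smallest that 3 libraries against 3 allow. In both groups the immunoproteasome form was thus the minor transcript of the pair.

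In the regulatory particle all 6 PSMC genes of the ATPase ring rose, with a median of 0.38, and in each the shMMP9 libraries lay above the shControl libraries. PSMC2 had 161, 156 and 157 scaled counts in shMMP9 libraries, against 103, 107 and 99.98 in shControl libraries (log2 change 0.61, SE 0.0472, adjusted p = 1.46e-07). PSMC1 had 163, 159 and 149 in shMMP9 libraries and 111, 118 and 112 in shControl libraries (log2 change 0.46, SE 0.051, adjusted p = 4.90e-06). PSMC1 also has 13 annotated pseudogenes, so the share of reads that belongs to the gene is uncertain. The other 4 ATPase genes rose by 0.27 (PSMC5) to 0.41 (PSMC6), and each of the 6 calls held in every alternative setting run. PSMC3IP, which is no ATPase, stood at -0.08 and did not pass.

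Of the 3 non-ATPase genes of the base, PSMD1 and PSMD4 rose and PSMD2 fell. PSMD1, a large scaffold of the base, had 159, 161 and 144 scaled counts in shMMP9 libraries and 112, 124 and 118 in shControl libraries (log2 change 0.39). PSMD2, the second large scaffold and a docking site for shuttle factors, had 327, 329 and 321 in shMMP9 libraries, against 349, 398 and 388 in shControl libraries (log2 change -0.21, SE 0.0545, adjusted p = 0.0043). The gap between the groups was narrow for PSMD2, and shControl replicate 1 lay nearest to shMMP9. The ubiquitin receptor gene PSMD4 rose by 0.14 (adjusted p = 0.0173), and the call ended when shMMP9 replicate 1, shMMP9 replicate 2 or shControl replicate 3 was left out (adjusted p = 0.0635, 0.0586 and 0.0538).

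In the lid 7 of 8 genes rose and none fell, with a median of 0.22. PSMD13 had 164, 159.6 and 163 scaled counts in shMMP9 libraries, against 108, 119.6 and 117 in shControl libraries (log2 change 0.49, SE 0.0499, adjusted p = 2.03e-06). PSMD6 had 165, 171 and 157 in shMMP9 libraries and 122, 123 and 124 in shControl libraries (log2 change 0.41, adjusted p = 6.41e-06). Both are structural lid subunits with groups that did not overlap. PSMD8, PSMD11 and PSMD3 rose by 0.23, 0.23 and 0.22. PSMD14, the deubiquitinase, rose by 0.12 (adjusted p = 0.0299) and PSMD12 by 0.13 (adjusted p = 0.0332), the smallest calls of the lid. Both ended without shMMP9 replicates 1, 2 or 3 (adjusted p = 0.1, 0.0807 and 0.057 for PSMD14, and 0.118, 0.0858 and 0.0539 for PSMD12) and without shControl replicate 3 (0.103 for PSMD14 and 0.138 for PSMD12). The PSMD14 call also ended without shControl replicate 2 (adjusted p = 0.0512). PSMD7, the partner of PSMD14, stood at -0.05 and did not pass.

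The 3 remaining PSMD genes encode chaperones that help to assemble the base and leave the finished particle. None of them rose. PSMD9 had 36.7, 35.6 and 36.7 scaled counts in shMMP9 libraries, against 40.8, 41.5 and 39.5 in shControl libraries (log2 change -0.15, adjusted p = 0.0306). This call ended without any 1 of shMMP9 replicates 1 to 3 (adjusted p = 0.0719, 0.0906 and 0.0569) or shControl replicate 2 (adjusted p = 0.0862), and under median-of-ratios (adjusted p = 0.142) and total-read scaling (adjusted p = 0.161). PSMD10, also known as gankyrin, stood at 0.08 and PSMD5 at 0.13, and neither passed. PSMD5 passed as higher without shControl replicate 2 (adjusted p = 0.0336) and under both other scalings (adjusted p = 0.0156 and 0.0126).

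**Figure D2:**
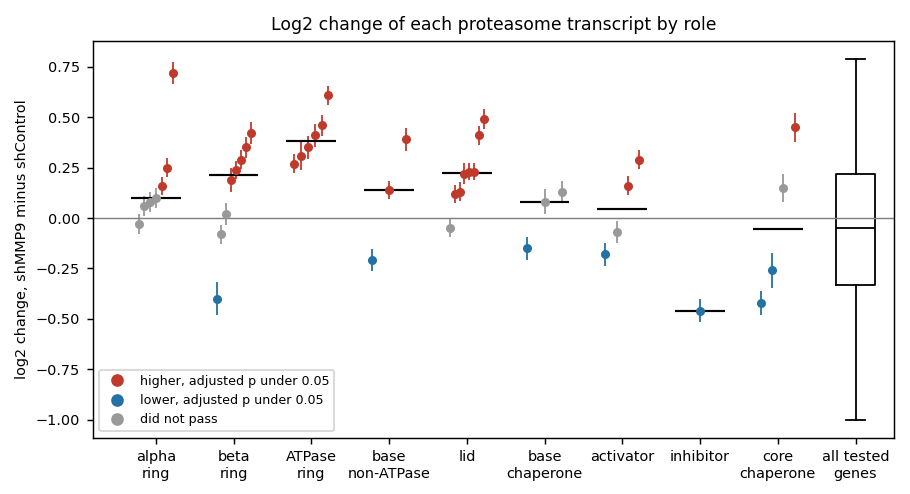
Points give the log2 change of each gene (shMMP9 minus shControl, bars are SE) in its role, coloured by call, with a line at each role's median, and the box shows the quartiles of all tested genes, with whiskers from percentile 5 to percentile 95. The ATPase ring has the highest median, 0.38. All genes of the ATPase ring, and also all of the alpha ring, lie above the median of all tested genes, -0.05.

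Set against each other, 8 of 15 core genes rose (53.3%) and 1 fell (6.67%), with a median of 0.16. Of 20 regulatory genes 15 rose (75%) and 2 fell (10%), with a median of 0.23. Among all genes tested 25.0% rose and 32.5% fell. The difference of the medians, core minus regulatory, was -0.08 on the log2 scale. It was -0.12 without the 3 base assembly chaperones, where 15 of 17 regulatory genes rose, and -0.06 without PSMB10. The mean log2 level of core genes minus that of regulatory genes was 0.049, 0.053 and 0.076 in shMMP9 libraries and 0.158, 0.110 and 0.122 in shControl libraries. These offsets include transcript length, so only their difference between the groups, -0.071, can be read. The groups did not overlap here or without the base chaperones, but without PSMB10 they did, at 0.266, 0.270 and 0.294 in shMMP9 libraries and 0.344, 0.291 and 0.287 in shControl libraries. Both leave-outs were chosen after seeing the data. The medians of the rings and the lid were spread more widely than those of the particles, at 0.10 for the alpha ring, 0.22 for the beta ring, 0.38 for the ATPase ring and 0.22 for the lid.

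**Figure D3:**
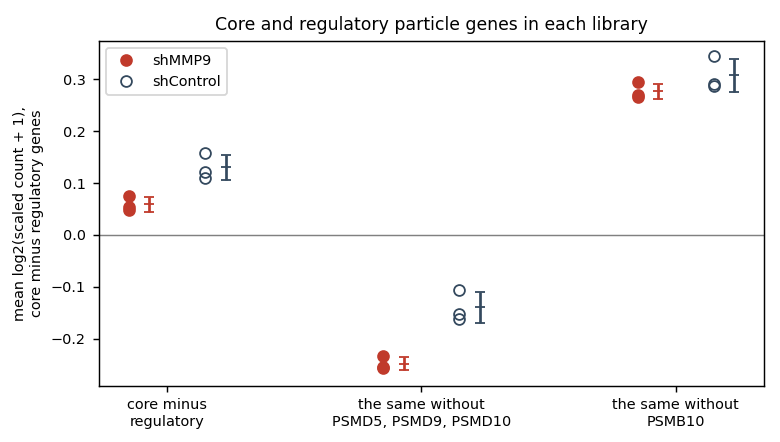
Points give, for each library, the mean log2(scaled count + 1) of core genes minus that of regulatory genes, for all genes and for both leave-outs, with the mean and SD of 3 libraries beside them. The shMMP9 points lie below the shControl points in the first and second set and overlap them in the set without PSMB10.

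Among the activators, which open the core without ATP or ubiquitin, 2 of 4 rose and 1 fell. PSME3, which encodes the nuclear PA28 gamma, had 229, 219 and 226 scaled counts in shMMP9 libraries, against 179, 194 and 179.8 in shControl libraries (log2 change 0.29, SE 0.0486, adjusted p = 0.000218). PSME4, which encodes the nuclear activator PA200, had 127, 122 and 126 in shMMP9 libraries and 108, 113 and 116 in shControl libraries (log2 change 0.16, adjusted p = 0.0122). That call ended without shMMP9 replicate 1 (adjusted p = 0.0642). PSME1, the interferon-inducible PA28 alpha, had 70.5, 67.7 and 72.3 in shMMP9 libraries and 84.95, 79.2 and 75.6 in shControl libraries (log2 change -0.18, adjusted p = 0.0123). Its call ended without shMMP9 replicate 2 (adjusted p = 0.0578) and under median-of-ratios (adjusted p = 0.063) and total-read scaling (adjusted p = 0.0772). Its partner PSME2, the PA28 beta, stood at -0.07 with overlapping groups.

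PSMF1 encodes PI31, which binds the core and inhibits it in vitro. It had 83.0, 83.5 and 89.7 scaled counts in shMMP9 libraries, against 110.0, 119 and 124 in shControl libraries. This was the deepest fall of the 45 genes, with a log2 change of -0.46 (SE 0.0564, adjusted p = 1.36e-05), and it stayed between -0.50 and -0.40 in all alternatives.

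The PSMG genes encode chaperones that build the alpha ring and do not stay in the finished core. They did not move together: 1 rose, 2 fell, and the median was -0.05. PSMG3 had 51.98, 51.6 and 55.2 scaled counts in shMMP9 libraries, against 35.03, 43.2 and 37.6 in shControl libraries (log2 change 0.45, adjusted p = 0.000141). PSMG4, with which PSMG3 forms a pair, had 13.6, 13.8 and 15.5 in shMMP9 libraries and 18, 17.98 and 16.0 in shControl libraries (log2 change -0.26, adjusted p = 0.018). The PSMG4 call ended when shMMP9 replicate 1, shMMP9 replicate 2 or shControl replicate 2 was left out (adjusted p = 0.0742, 0.0596 and 0.059), and under median-of-ratios (adjusted p = 0.0504) and total-read scaling (adjusted p = 0.0564). PSMG2 had 28.8, 30.5 and 30.3 in shMMP9 libraries, against 38.96, 40.6 and 41.1 in shControl libraries (log2 change -0.42, SE 0.059, adjusted p = 4.62e-05). PSMG2 lies on chromosome 18, whose 259 tested genes had a median log2 change of -0.42, so its fall and the shift of that chromosome cannot be told apart. Such medians were taken for chromosomes 13 and 18 only, so genes on other chromosomes were not compared with theirs. Its partner PSMG1 stood at 0.15 and did not pass, but passed without shControl replicate 1 (adjusted p = 0.0249) and under both other scalings (adjusted p = 0.0201 and 0.0197).

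**Figure D4:**
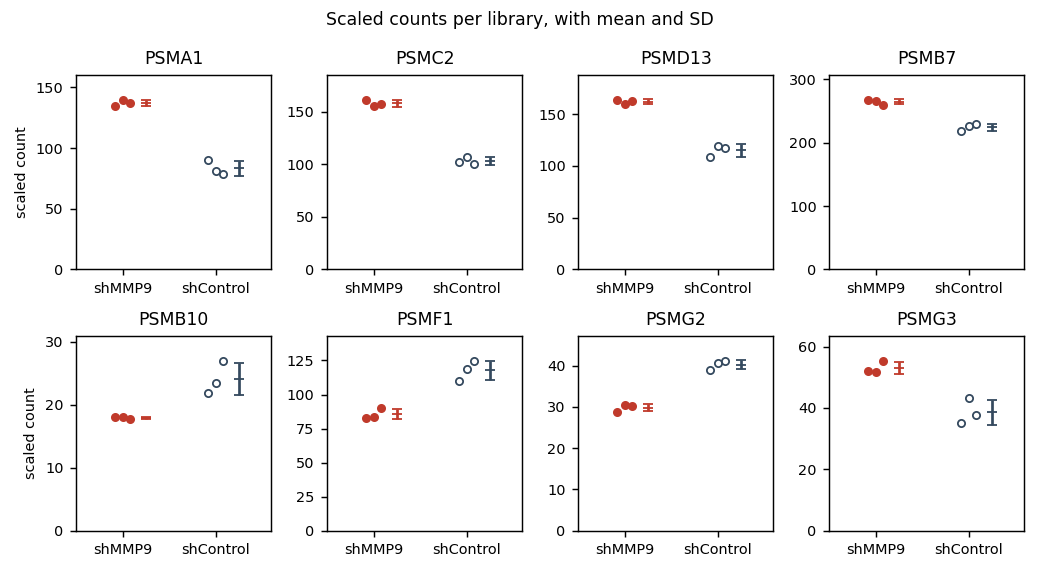
Scaled counts of 8 genes in each library of shMMP9 (filled) and shControl (open), with the mean and SD of 3 libraries beside the points and each axis starting at 0. PSMA1, PSMC2, PSMD13, PSMB7 and PSMG3 lie higher in all shMMP9 libraries, and PSMB10, PSMF1 and PSMG2 lie lower.

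Levels of different genes were compared per kilobase, using the median length of a gene's protein-coding transcripts in GENCODE 29. Within the core, mean scaled counts per kilobase in shMMP9 cells ran from 14.7 ± 0.169 for PSMB10 and 43.4 ± 1.03 for PSMA5 to 425 ± 8.44 for PSMA7 and 561 ± 16.1 for PSMB4 (SD, n = 3). In shControl cells PSMB10 stood at 19.7 ± 2.10, PSMA5 at 41.0 ± 1.26, PSMA7 at 397 ± 17.3 and PSMB4 at 419 ± 27.4. The ends of this order lay far outside the replicate spread, although PSMA7 and PSMB4 were close in shControl cells. In the ATPase ring PSMC6 was lowest, at 37.3 ± 0.295 per kilobase in shMMP9 cells and 27.8 ± 1.43 in shControl cells, and PSMC4 had the highest mean, at 193 ± 4.05 in shMMP9 cells and 157 ± 18.5 in shControl cells. PSMC5 followed at 176 ± 3.22 in shMMP9 cells and 146 ± 4.38 in shControl cells, which in shControl lay within the SD of PSMC4. Of the 45 genes 10 had a mean under 50 scaled counts in shControl cells. They include 4 of the 7 that fell and 2 of the 26 that rose. The 4 are PSMB10, PSMG2, PSMD9 and PSMG4, and the calls of PSMD9 and PSMG4 ended under both other scalings. The matching shares among all tested genes were not computed. The 45 genes lie on 17 chromosomes, the 26 that rose on 11 of them and the 7 that fell on 7. Exons of 18 of the 45 genes overlap those of a gene on the opposite strand, as for PSMD13 with SIRT3 and PSMG3 with PSMG3-AS1. The strand setting of the counts is not given in the sources used here, so such reads cannot be assigned. Exons of 7 overlap those of a gene on the same strand, among them PSMA1, PSMF1, PSMB10 and PSMD9. There the strand would not separate the reads.

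Around the particle itself, 36 of 37 listed genes of the ubiquitin-proteasome pathway outside the symbol rule were tested. Of these 13 rose (36.1%) and 9 fell (25.0%), with a median log2 change of 0.03. The 61.1% that passed lay near the 57.5% of all genes tested, of which 25.0% rose and 32.5% fell. The rises were led by NQO1, a quinone reductase that also binds the core and is a textbook target of NFE2L2, with 437, 440.1 and 429 scaled counts in shMMP9 libraries, against 150.0, 164 and 147 in shControl libraries (log2 change 1.5, SE 0.0508, adjusted p = 4.00e-11). NUB1 stood at 0.13 and UBE3C at 0.06, and neither passed, although both passed under median-of-ratios scaling (adjusted p = 0.0105 and 0.045). NFE2L2 rose by 0.44 (adjusted p = 3.06e-05) and NFE2L1 by 0.20 (adjusted p = 0.00169). DDI2, the protease that activates NFE2L1, rose by 0.55 (adjusted p = 8.35e-06). Of the small MAF partners, MAFK stood at -0.41 and MAFF at -0.28, both called lower, and MAFG at -0.05. In the group of NFE2L1 and its partners 2 of 6 genes rose (33.3%) and 2 fell (33.3%), with a median of -0.10. The part of these factors in the proteasome values was not tested.

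Among factors that build or hold the particle, POMP, the maturation protein of the core, had 239.6, 235 and 232 scaled counts in shMMP9 libraries and 144, 137 and 121 in shControl libraries (log2 change 0.81, SE 0.0594, adjusted p = 8.28e-08). POMP lies on chromosome 13, whose 321 tested genes had a median of 0.19. PITHD1 rose by 0.82, while ECPAS, a proteasome adaptor and scaffold, stood at -0.41 and TXNL1, a thioredoxin-like protein of the particle, at -0.27, both called lower. ADRM1, a ubiquitin receptor subunit, rose by 0.29 (adjusted p = 0.00181). Of the deubiquitinase genes besides PSMD14, USP14 stood at -0.38 (adjusted p = 1.80e-05) and UCHL5 at -0.21 (adjusted p = 0.00411), both called lower. SEM1 stood at 0.02. USP14 and TXNL1 lie on chromosome 18, as PSMG2 does, where the median of tested genes was -0.42.

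VCP, the ATPase that extracts ubiquitin-tagged proteins, rose by 0.35, with its cofactors UFD1 at 0.38, NPLOC4 at 0.25 and FAF2 at 0.24. In that group 4 of 5 genes rose (80.0%) and none fell. Among all genes tested 25.0% rose and 32.5% fell. Of 6 tested shuttle factors, which carry substrates to the particle, 2 rose (33.3%) and 2 fell (33.3%). Among them were DDI2 at 0.55, UBQLN4 at 0.29 and UBQLN2 at -0.27. Of the 6 genes for ubiquitin and its activation only RPS27A passed (16.7%), at 0.21 (adjusted p = 0.0115). The polyubiquitin gene UBB stood at -0.14 with overlapping groups. UBB and UBA1 passed as lower without shControl replicate 1 (adjusted p = 0.000494 and 0.00949), UBB also in limma-voom on estimated reads (adjusted p = 0.0342), and the RPS27A call ended without shMMP9 replicate 1 (adjusted p = 0.0704).

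**Figure D5:**
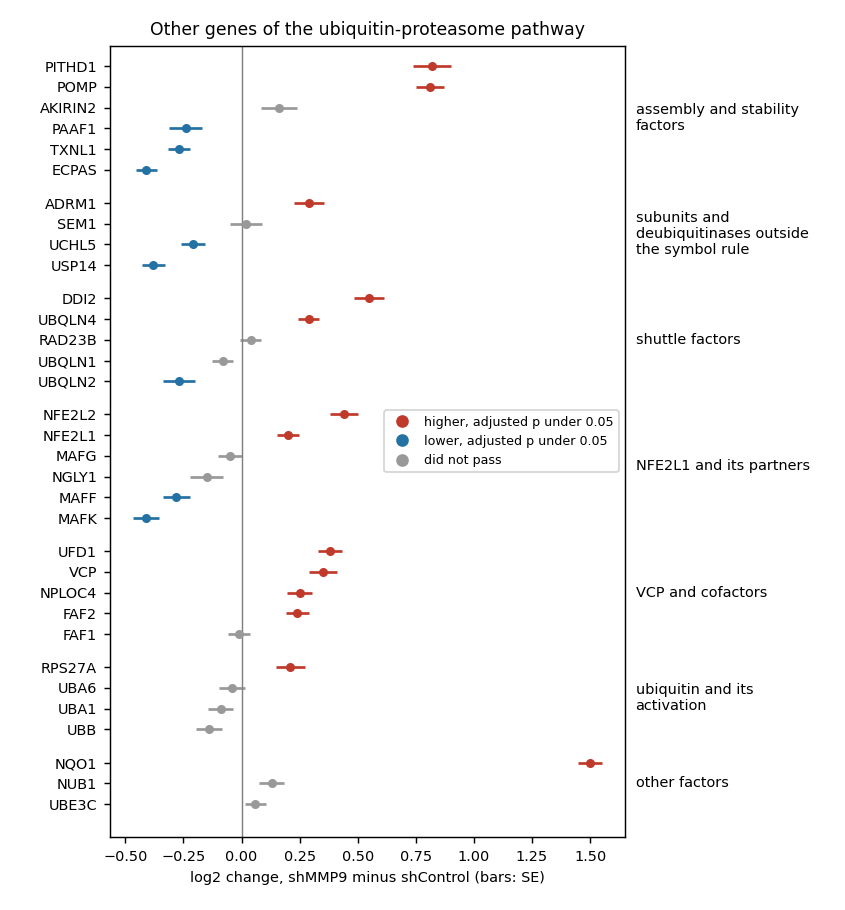
Log2 change (shMMP9 minus shControl, bars are SE) of 33 other genes of the ubiquitin-proteasome pathway by role, coloured by call. NQO1 lies farthest right at 1.5, POMP and PITHD1 lie above 0.8, and USP14, UCHL5, ECPAS and MAFK lie left of 0.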

How the data were processed

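Total RNA of 6 A375 libraries was analysed from 1 gene table. The submitters' processing notes name hg38, the aligner STAR (2.6.1d) and Partek. How reads were counted, with which annotation, strand setting and filter, is not given in the sources used here. In the authors' table the deposited values are on a log2 scale: linear values less 1 share an upper quartile of 45.35 to 45.36 in all libraries and low values fall on multiples of a step, taken as 1 read. Dividing by it gave whole numbers within 0.01 for 64.6 to 67.7% of values, so the read numbers are estimates. The values are thus scaled and logged although the table is described as counts, so a count model was not used, and the test was limma 3.58.1 in R 4.3.3 with a variance trend on the deposited log2 values (pseudocount 1). A gene was kept with the equivalent of 10 reads in 3 libraries, at median depth, and a total of 15, leaving 17194 after 1345 were dropped. Two-sided p-values were adjusted by Benjamini-Hochberg over those genes and called under 0.05. The fit was also run on simulated counts in which only a small share of genes was changed. In the real data 57.5% of genes tested passed, so that run does not test the calls or the scaling under so broad a shift.

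The members, lists and tests were chosen with earlier results of these data known. Alternatives were a replicate block, leaving out single libraries, 2 other scalings, no filter, limma-voom on estimated reads, other pseudocounts (0.25 and 4), a threshold of 0.01 and no variance trend. Per-library values are given for MMP9, the catalytic genes and, in each symbol class, up to 2 largest rises and 2 largest falls that passed, with PSMD1 and 2 pathway genes (NQO1, POMP) added by choice after their values were seen. Pathway genes are named by smallest adjusted p in each role, up to 4; MAFG was added after its values were seen, and some genes of the lists are not reported here. Library pairs of 1 group differed by a chi-square per gene of 2.48 to 13.3, so none was treated as a duplicate. Figures were drawn with matplotlib 3.10.9.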

Additional observations from a re-analysis of the deposited data

How the results depend on the processing

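Of the 33 proteasome genes called, 25 were called in all 15 alternatives (21 higher, 4 lower), 8 lost the call in at least 1, 5 uncalled genes gained one, and no called gene changed direction. The number called lower, 7, was 4 with median-of-ratios scaling, 4 with total-read scaling and 4 at a threshold of 0.01, and 4 to 8 with a library left out, while the number called higher, 26, ran from 21 to 30. Regulatory genes called lower, 2, were 1 with either scaling, at a threshold of 0.01, with the replicate block and without a variance trend, and 1 to 2 with a library left out. Core genes called lower were 1 to 2 with a library left out. Both scalings raised the medians of core and regulatory genes to 0.21 and 0.29. The difference of medians, core minus regulatory, was -0.12 without the base assembly chaperones, where the regulatory median was 0.27, and -0.06 without PSMB10, and -0.09 to -0.07 with a library left out. Same-numbered libraries did not deviate together (correlations 0.04, -0.13 and -0.03), so the numbers were not taken as pairs. With the replicate number as a block 24 members were called higher and 6 lower. The block ended the calls of PSMD9, PSMD12 and PSMD14, and dropping the variance trend ended those of PSMB1, PSMD4, PSMD9, PSMD12, PSMD14, PSME1 and PSME4. Every proteasome gene had at least 347 estimated reads in each library, and with 3 libraries a group the smallest change called was 0.12 on the log2 scale.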
